A study of Oryza sativa with 12 samples.

Results

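Gibberellins are diterpenoid growth hormones of plants, and this account follows the transcripts for making, inactivating, sensing and answering them in rice roots. The oxidases GA20ox and GA3ox carry out the last steps to bioactive gibberellin, and GA2ox oxidases inactivate it. In rice, the hormone binds the receptor GID1, the complex then binds the DELLA repressor SLR1, and the F-box protein GID2 marks SLR1 for destruction, which releases growth. In Arabidopsis, DELLA repressors are known for slowing growth under salt.

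The 12 RNA-seq libraries came from roots of wild-type rice (Oryza sativa) and fell into 4 groups of 3: untreated roots, roots with 0.1 mM spermidine (a polyamine that plants also make), roots with 100 mM NaCl, and roots with 0.1 mM spermidine plus 100 mM NaCl, called spermidine+NaCl here. Treatments lasted 72 hours, and no time is given for untreated roots, so treatment and time cannot be told apart in comparisons with them. Nothing in the labels says that a group's libraries are separate cultures, so the spread behind each p-value is that between these samples and may be only technical.

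Members were the unigenes (clusters of assembled transcripts) with a best protein hit in Oryza whose description named gibberellin or a DELLA protein, leaving out descriptions with kaurene. There were 65 members among 182689 unigenes, of which 68051 had an Oryza hit. The descriptions placed 8 in GA20ox, 3 in GA3ox, 26 in GA2ox, 2 in GID1, 4 in DELLA, 6 in chitin-inducible gibberellin-responsive proteins (CIGR) and 4 in gibberellin-regulated GASA peptides. The other 12 were 5 CYP714B cytochromes, 1 GID2, 1 kinesin KIN-4A, 3 SAUR36-like proteins and 2 putative gibberellin oxidases. Roles rest on those descriptions, and the best Swissprot hit was a rice protein for 22 members and an Arabidopsis protein for 22. A unigene is not a gene: several can stand for the same gene, and reads shared between similar unigenes make their values uncertain. The deposited annotation gave a GRAS domain, the domain of the DELLA family, to 6 CIGR and 3 DELLA members and an iron-dependent oxygenase domain to 24 members, and it gave no family for 14.

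The mean over all libraries ran from 0.105 to 152 FPKM (deposited values, in fragments per kilobase scaled to the size of the library). Of the 65 members, 43 reached a mean of 1 FPKM and were tested. The 22 others were not tested, with means of up to 0.875 FPKM. Just inside the limit stood members at 1.01, 1.04 and 1.14 FPKM, and just outside it members at 0.688, 0.817 and 0.875 FPKM. Tests used log2(FPKM + 1), a scale that understates the change of low unigenes, with limma fitted to all 65836 unigenes past the limit and Benjamini-Hochberg adjustment over all of them. A member is called changed at an adjusted p below 0.05, errors of log2 changes are SE, and the words rose and fell are kept for called members.

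Some libraries stood apart. On a scale over all tested unigenes with an Oryza hit, where the untreated mean is 0 and the NaCl mean is 1, the spermidine+NaCl libraries lay at 0.443, 0.161 and 0.203, so replicate 1 was nearest to NaCl. Spermidine replicates lay at 0.209, 0.222 and 0.055. Within groups, libraries correlated at 0.927 to 0.961 over these unigenes. Summed FPKM of 36 unigenes for root markers was 2974 to 3222 in untreated, 2952 to 3344 in spermidine, 1661 to 1768 in NaCl and 2235 to 2513 in spermidine+NaCl libraries. The silicon channel NIP2-1 carried most of that sum (2226 to 2527 FPKM untreated and 1081 to 1271 with NaCl), while Casparian strip membrane proteins were at 169.9 to 190.9 FPKM untreated and 167.1 to 210.6 with NaCl. SHORT-ROOT unigenes summed to 42.19 to 51.55 FPKM untreated and 23.18 to 23.44 with NaCl. Markers of shoot tissue (66 unigenes) summed to 85.5 to 116 FPKM in 10 libraries, to 221 in spermidine replicate 1 and to 384 in NaCl replicate 3. Their part in the results below was not tested. In bulk roots, fewer cells of a type and less RNA per cell cannot be told apart.

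With NaCl alone, 2 of 3 tested GA3ox and 1 of 2 tested GA20ox members fell, and 4 of 6 CIGR members rose. The abundant CIGR1 and CIGR2 unigenes rose 9.8- and 8.45-fold in mean FPKM, and DELLA and GA2ox members split in direction. Of the 43 tested members, 13 rose and 8 fell against untreated roots, 48.8% in all, while 22.9% of all tested unigenes were called, 10% upward and 12.9% downward. Of tested unigenes with an Oryza hit, which all members have, 27.1% were called, 12.4% upward and 14.7% downward. With median-ratio size factors, a different scaling of the libraries, 12% of all tested unigenes were called upward and 8.98% downward, so the balance of directions over the whole table depends on scaling. The members' median log2 change was 0.03, and that of all tested unigenes was -0.13. In all 21 called members the 3 NaCl libraries did not overlap the 3 untreated ones. The calls were made on these same libraries, so this is not separate evidence. Some members that were not called, such as Cluster-52034.45087, did not overlap either, and the share over all tested unigenes was not computed. Of the 13 that rose, 4 had an untreated mean under 1 FPKM, so they passed the limit only through the groups where they were high.

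When spermidine was given with NaCl, 7 members were higher and 9 lower than with NaCl alone, 37.2% of the 43, while 15.8% of all tested unigenes were called, 8.63% higher and 7.18% lower. Of tested unigenes with an Oryza hit, 19.3% were called. The median log2 change was -0.00 over members and 0.14 over all unigenes. This comparison and that of NaCl with untreated roots share the NaCl libraries, so their values are given side by side and not as separate evidence. The share of higher calls depended on scaling. With median-ratio size factors, which moved the median of all unigenes from 0.14 to 0.00 here and from -0.13 to -0.02 for NaCl against untreated roots, 5 members were higher and 13 lower. The whole table moved likewise, with 4.12% of all tested unigenes higher and 8.37% lower under that scaling. Spermidine alone gave no called member (0 of 43 by limma, with 4 at an unadjusted p below 0.05), while 2.55% of all tested unigenes were called and 0.294% of those with an Oryza hit. A test of whether the change with spermidine differed with and without NaCl (the interaction) called 13 members, 6 above 0 and 7 below, 30.2% of the 43 against 10.9% of all tested unigenes (4.18% above 0 and 6.68% below). It called 12.1% of those with an Oryza hit. With median-ratio size factors 4 members were above 0 and 8 below, against 2.14% and 7.57% of all tested unigenes. In the main fit, the 4 members with an untreated mean under 1 FPKM were among the 9 lower and the 7 below 0. They passed the limit through groups where they were high, which favours both directions.

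**Figure D1:**
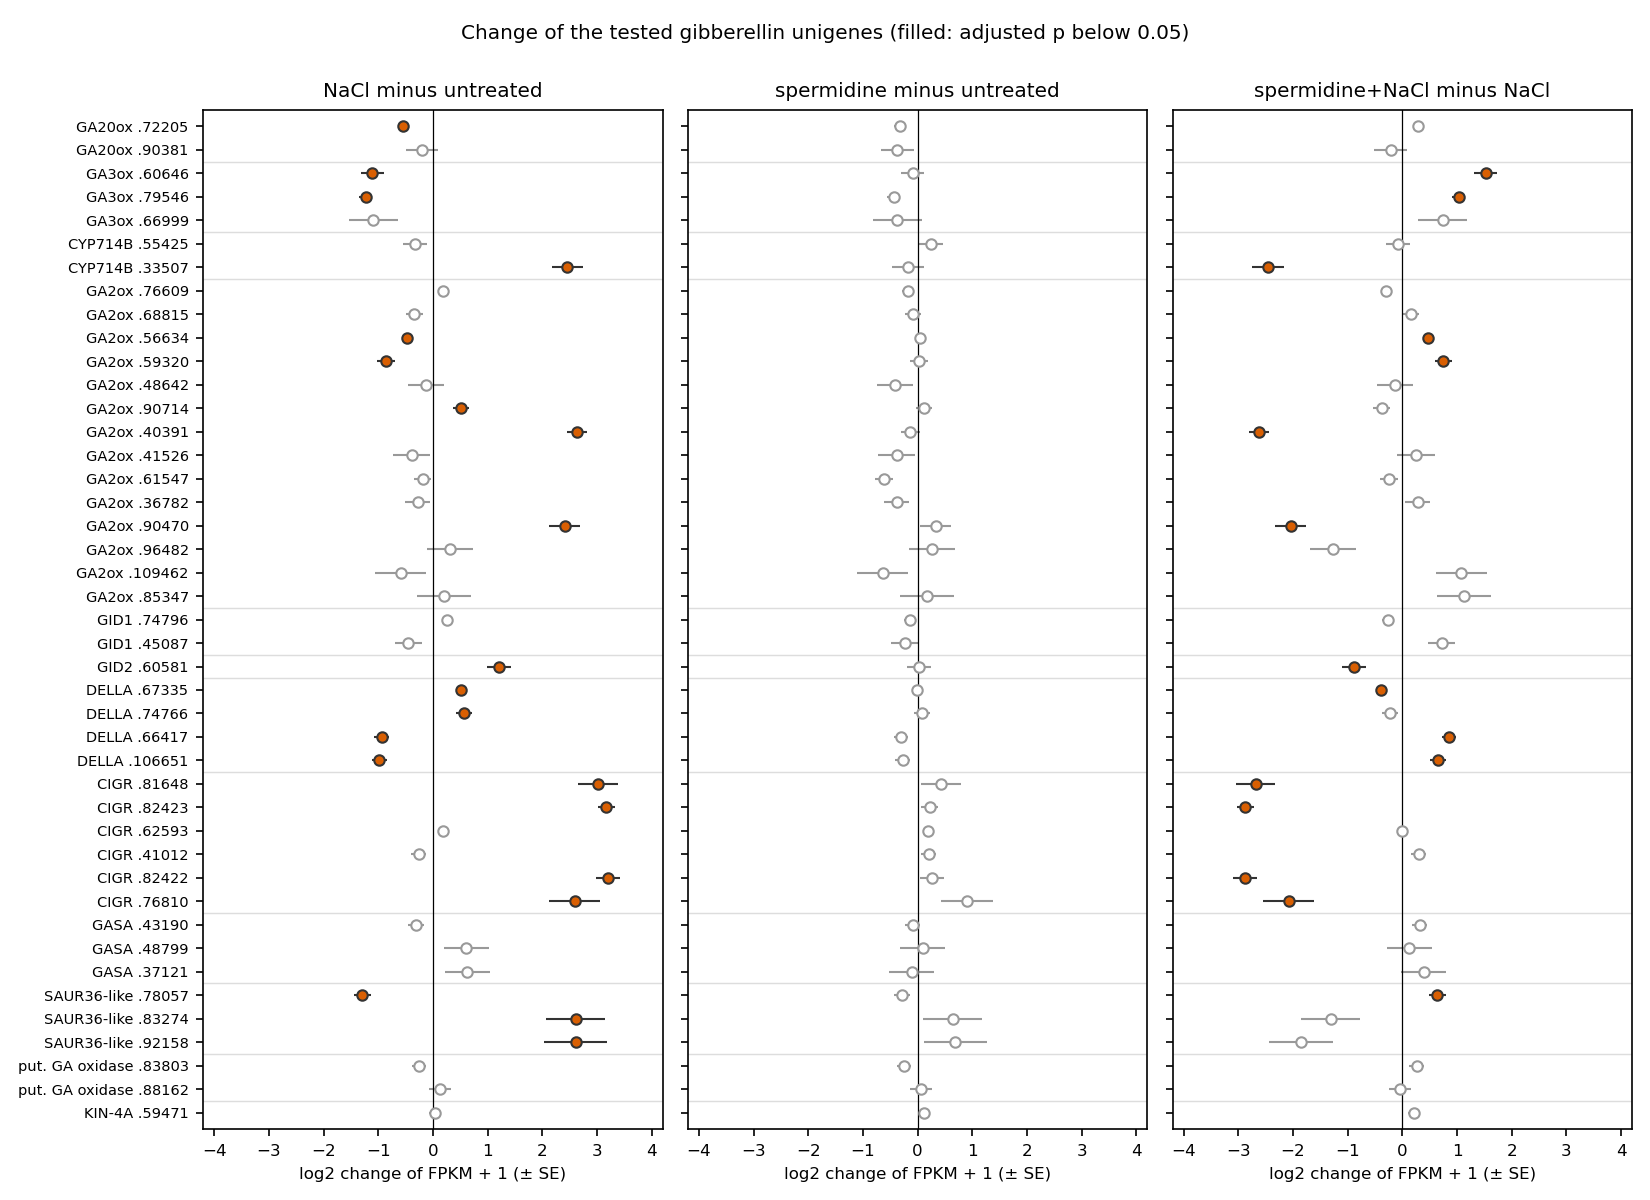
Log2 change of FPKM + 1 (horizontal axis, with SE) of the 43 tested members in 3 comparisons, grouped by role. Labels give the digits of the unigene name after the point, and filled points passed an adjusted p below 0.05. CIGR members reach 3.21 with NaCl and -2.87 when spermidine was added to NaCl, and no point is filled for spermidine alone.

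Both abundant GA3ox unigenes and the abundant GA20ox unigene were lower with NaCl. The GA3ox unigenes had the same best-hit description and may stand for the same gene. Rice GA20ox enzymes oxidise the precursors repeatedly, and GA3ox adds the hydroxyl group that makes the hormone active. GA20ox 1 (Cluster-52034.72205) was at 56.6, 51.8 and 61.7 FPKM in untreated, 43.1, 46.8 and 44.2 in spermidine, 42.2, 33.5 and 40.8 in NaCl, and 49.0, 46.6 and 46.8 in spermidine+NaCl libraries. Every treated library was below every untreated one, and the NaCl libraries were the lowest of all. It fell with NaCl by 0.54 ± 0.10 on the log2 scale (limma, adjusted p = 0.00285). Its log2 difference between spermidine+NaCl and NaCl was 0.29 ± 0.10 and was not called (adjusted p = 0.073), but it was called with a limit of 5 FPKM (0.0475) and with quantile normalization (0.0459). The interaction was 0.63 ± 0.14 (adjusted p = 0.0173), a call lost with median-ratio scaling (0.44, adjusted p = 0.132).

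The most abundant GA3ox unigene (Cluster-52034.60646) was at 82.3, 73.6 and 57.9 FPKM in untreated, 66.3, 56.2 and 78.1 in spermidine, 25.7, 43.5 and 29.6 in NaCl, and 82.7, 90.4 and 113 in spermidine+NaCl libraries. The NaCl libraries were below all others, and the spermidine+NaCl libraries were above all others. Its mean was 2.17-fold lower with NaCl than untreated (log2 change -1.11 ± 0.21, limma adjusted p = 0.00363) and 2.9-fold higher with spermidine+NaCl than with NaCl (1.53 ± 0.21, adjusted p = 0.000873). The interaction was 1.62 ± 0.30 (adjusted p = 0.00709).

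The second GA3ox unigene (Cluster-52034.79546) had the largest called fall with NaCl in its class. It was at 68.2, 58.3 and 74.2 FPKM in untreated, 48.2, 51.6 and 47.3 in spermidine, 26.7, 28.2 and 28.7 in NaCl, and 53.0, 53.4 and 68.9 in spermidine+NaCl libraries. The NaCl libraries formed a tight low group, and the spermidine libraries lay between them and the untreated ones. It fell with NaCl by 1.23 ± 0.12 on the log2 scale (limma, adjusted p = 5.35e-05) and was 1.03 ± 0.12 higher with spermidine+NaCl than with NaCl (adjusted p = 0.000269), with an interaction of 1.47 ± 0.17 (adjusted p = 0.000535). For spermidine alone the difference was -0.44 (adjusted p = 0.105). Summed over all 3 GA3ox members, FPKM was 140 ± 11.1 (SD, n = 3) untreated, 117 ± 9.75 with spermidine, 61.0 ± 9.74 with NaCl and 155 ± 24.7 with spermidine+NaCl.

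The third GA3ox unigene (mean 1.14 FPKM) and the second tested GA20ox unigene (mean 1.49 FPKM) were not called in any comparison. For GA3ox the third unigene had a log2 difference of -1.09 ± 0.45 with NaCl (limma, adjusted p = 0.112).

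**Figure D2:**
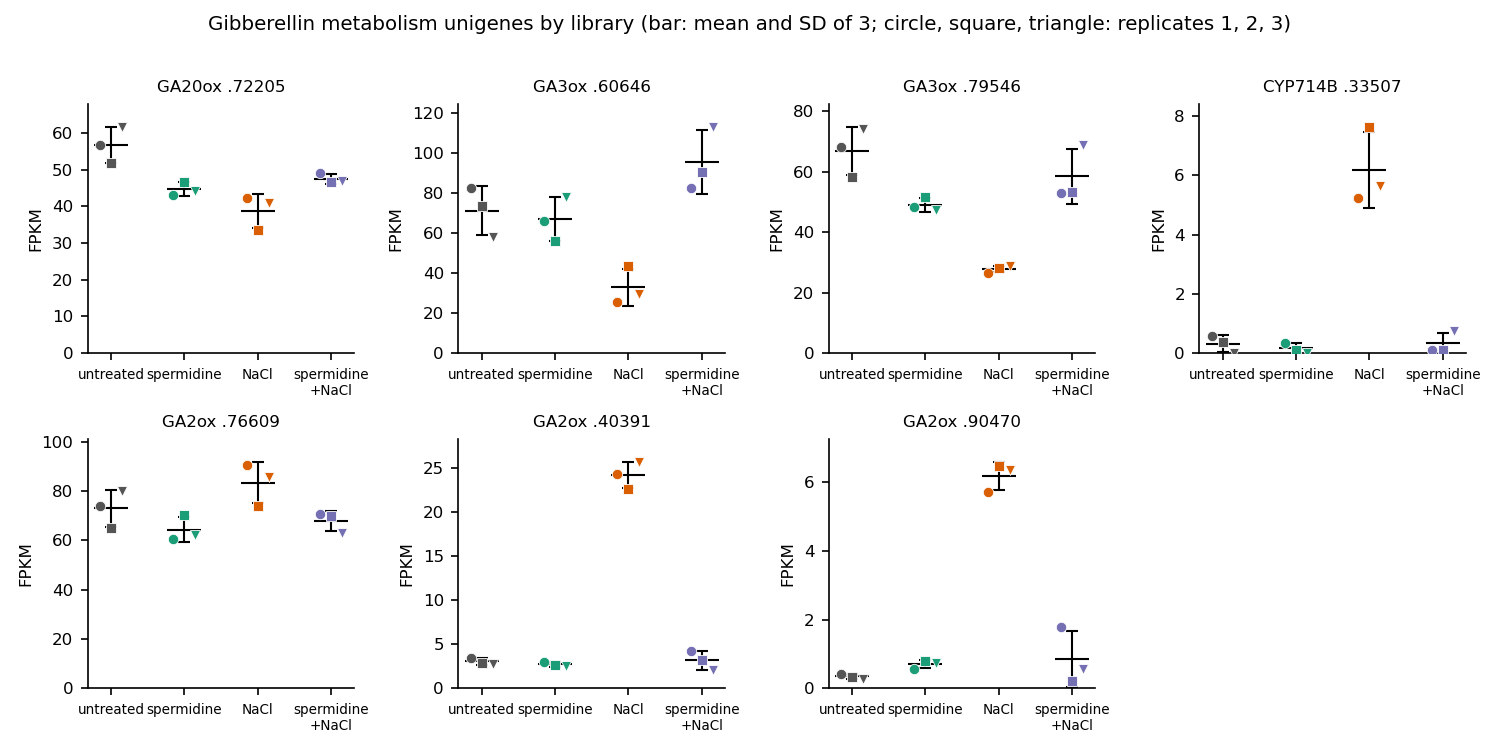
FPKM (vertical axis) of 7 synthesis and inactivation members in each of the 12 libraries, by group; bars are the mean and SD of 3 libraries, and symbols mark the replicate number. Both GA3ox panels are lowest with NaCl, while GA2ox Cluster-52034.40391 stands at 22.7 to 25.7 FPKM with NaCl and at no more than 4.23 FPKM in all other libraries.

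The GA2ox class did not move as a block. Of 14 tested members 3 rose and 2 fell with NaCl, which is 35.7%. Of all tested unigenes 22.9% were called, and 27.1% of those with an Oryza hit. When spermidine was added to NaCl 2 members were higher and 2 lower, 28.6% against 15.8% of all tested and 19.3% of Oryza-hit unigenes. The largest rises were in a pair of unigenes with the same best hit, the hypothetical rice protein OsI_03793. Their nearest Swissprot protein was a gibberellin 2-beta-dioxygenase that is not from rice. The main unigene of this pair (Cluster-52034.40391) was at 3.49, 2.92 and 2.74 FPKM in untreated, 3.0, 2.62 and 2.5 in spermidine, 24.3, 22.7 and 25.7 in NaCl, and 4.23, 3.25 and 2.07 in spermidine+NaCl libraries. It was high in the NaCl libraries only, and the other 3 groups overlapped. Its mean was 7.94-fold higher with NaCl than untreated (log2 change 2.64 ± 0.18, limma adjusted p = 7.22e-06) and 7.61-fold lower with spermidine+NaCl than with NaCl (-2.62 ± 0.18, adjusted p = 1.35e-05). The interaction was -2.50 ± 0.25 (adjusted p = 0.000301).

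The minor unigene of the pair (Cluster-52034.90470) was at 0.28 to 0.43 FPKM in untreated and 5.71 to 6.48 in NaCl libraries, and at 1.78, 0.22 and 0.57 in spermidine+NaCl libraries. Its log2 changes were 2.41 ± 0.28 with NaCl (limma, adjusted p = 0.00017) and -2.04 ± 0.28 for spermidine+NaCl against NaCl (adjusted p = 0.000799). With a pseudocount of 0.1 they were 3.81 and -3.08. This minor unigene passed the limit through the NaCl group, which favours changes in these directions. Reads may be shared within the pair, so the values are not independent of each other.

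The most abundant GA2ox member had the best hit Os05g0208500 (Cluster-52034.76609). It was at 74.0, 65.1 and 79.9 FPKM in untreated, 60.8, 70.3 and 62.1 in spermidine, 90.5, 74.1 and 85.8 in NaCl, and 70.9, 69.8 and 63.1 in spermidine+NaCl libraries. NaCl libraries overlapped the untreated ones, and the log2 difference of 0.19 was not called (limma, adjusted p = 0.24). GA2ox 2 (Cluster-52034.90714) rose with NaCl by 0.51 ± 0.15 (limma, adjusted p = 0.0342). That call ended without any single untreated library or without NaCl replicate 1 or 2, with adjusted p of 0.072, 0.0732 and 0.0927 for untreated replicates 1 to 3 and of 0.0887 and 0.109 for NaCl replicates 1 and 2. It was also lost with no limit on low values (limma, adjusted p = 0.0705).

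Of 3 tested members nearest to Arabidopsis GA2ox 8, 2 fell with NaCl, while 12.9% of all tested unigenes were called lower. The most abundant had a log2 difference of -0.34 ± 0.15 (limma, adjusted p = 0.127). In Arabidopsis GA2ox 8 inactivates gibberellin precursors with a longer carbon skeleton. Members under the limit with the same nearest protein did not fall. With no limit, limma called Cluster-52034.98033 and Cluster-10731.0 higher with NaCl (log2 changes 1.41 and 0.73, adjusted p = 0.00665 and 0.0255). Cluster-52034.68814 was not called (-0.29). The unigene with the hit Os04g0407800 (Cluster-52034.59320) was at 16.8, 15.7 and 12.3 FPKM in untreated, 7.61, 9.17 and 6.56 in NaCl, and 12.6, 12.2 and 16.5 in spermidine+NaCl libraries. It fell with NaCl by 0.86 ± 0.16 on the log2 scale (limma, adjusted p = 0.00313) and was 0.75 ± 0.16 higher with spermidine+NaCl than with NaCl (adjusted p = 0.0103, and 0.0584 when only those groups were fitted). A second such unigene (Cluster-52034.56634) fell from a mean of 13.9 to 9.68 FPKM with NaCl and stood at 13.9 with spermidine+NaCl, with log2 changes of -0.48 ± 0.09 (adjusted p = 0.00429) and 0.47 ± 0.09 (adjusted p = 0.00717). The latter call was lost with median-ratio scaling (0.31, adjusted p = 0.0671). Summed over all 26 members, which the 72.2 FPKM of the Os05g0208500 unigene dominated, GA2ox was at 170 ± 10.8 FPKM (SD, n = 3) untreated, 155 ± 8.86 with spermidine, 198 ± 12.1 with NaCl and 159 ± 4.31 with spermidine+NaCl.

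CYP714B cytochromes hydroxylate gibberellin precursors in rice. A unigene with CYP714B1 as its nearest Swissprot protein (Cluster-52034.33507) was at 0.56, 0.38 and 0 FPKM in untreated, 0.35, 0.12 and 0 in spermidine, 5.25, 7.65 and 5.65 in NaCl, and 0.12, 0.12 and 0.73 in spermidine+NaCl libraries. It was above 1 FPKM in NaCl libraries only, and it was listed at 0 in 2 libraries. It passed the limit through the NaCl group, which favours a rise with NaCl and a lower value without it. Its log2 changes were 2.46 ± 0.29 with NaCl (limma, adjusted p = 0.0002) and -2.46 ± 0.29 for spermidine+NaCl against NaCl (adjusted p = 0.000343). Their size depends on the pseudocount, being 4.29 and -4.18 with 0.1 in place of 1. The interaction of -2.29 was called with a pseudocount of 1 (adjusted p = 0.00615) and not with 0.1 (adjusted p = 0.0983). The CYP714B2 unigene, at 1.06 to 3.10 FPKM in all 12 libraries, was not called.

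The receptor was the most abundant member. GID1 (Cluster-52034.74796) was at 143, 137 and 164 FPKM in untreated, 133, 145 and 125 in spermidine, 194, 156 and 185 in NaCl, and 151, 140 and 150 in spermidine+NaCl libraries. NaCl replicates 1 and 3 were above all other libraries, while NaCl replicate 2 lay within the untreated range. The log2 difference with NaCl was 0.26 and was not called (limma, adjusted p = 0.0919), although it was 0.36 without NaCl replicate 2 (adjusted p = 0.0285) and 0.40 under median-ratio scaling (adjusted p = 0.0312). The second receptor unigene, nearest to Arabidopsis GID1C, was at 3.89 to 11.5 FPKM and was not called. Its log2 difference of spermidine+NaCl from NaCl was 0.72 (adjusted p = 0.0802), and without spermidine+NaCl replicate 1 it was 0.95 (adjusted p = 0.0264) with an interaction of 1.17 (adjusted p = 0.0471).

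GID2, the F-box protein that targets SLR1, rose with NaCl; its values are given in full although it was picked after they were seen. GID2 (Cluster-52034.60581) was at 4.52, 5.42 and 5.41 FPKM in untreated, 6.03, 5.51 and 4.32 in spermidine, 13.3, 12.8 and 13.4 in NaCl, and 10.5, 5.35 and 5.25 in spermidine+NaCl libraries. The NaCl libraries were above all others, and spermidine+NaCl replicate 1 stood between them and the rest. It rose 2.57-fold with NaCl (log2 change 1.21 ± 0.22, limma adjusted p = 0.00258). Spermidine+NaCl was lower than NaCl by a log2 change of -0.88 ± 0.22 (adjusted p = 0.0214). That second call ended without NaCl replicate 1 (adjusted p = 0.0683) or 3 (0.0678) or without spermidine+NaCl replicate 2 (0.0859) or 3 (0.081), and when only those groups were fitted (0.112). The interaction of -0.91 was not called (adjusted p = 0.091), and without spermidine+NaCl replicate 1 it was -1.20 (adjusted p = 0.00283).

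All 4 DELLA members were called with NaCl, the 2 abundant ones upward and the 2 scarcer ones downward. Of all tested unigenes 22.9% were called, 10% upward and 12.9% downward. Both abundant unigenes were described as SLR1, the rice DELLA repressor, and may stand for the same gene. The first (Cluster-52034.67335) was at 118, 130 and 138 FPKM in untreated, 125, 142 and 118 in spermidine, 197, 164 and 195 in NaCl, and 148, 135 and 141 in spermidine+NaCl libraries. NaCl libraries were the highest in each case, and spermidine+NaCl overlapped the untreated range. It rose with NaCl by 0.52 ± 0.10 on the log2 scale (limma, adjusted p = 0.00349) and fell by 0.39 ± 0.10 when spermidine was added to NaCl (adjusted p = 0.0246). The fall was lost in 8 of 21 alternatives, among them those without NaCl replicate 1 (adjusted p = 0.09) or 3 (0.0873), without spermidine+NaCl replicate 2 (0.0848) or 3 (0.0676), and with quantile normalization (0.119).

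The second SLR1 unigene (Cluster-52034.74766) was at 82.9, 128 and 96.7 FPKM in untreated, 103, 113 and 103 in spermidine, 136, 164 and 153 in NaCl, and 117, 122 and 150 in spermidine+NaCl libraries. NaCl libraries lay above the untreated ones, which were themselves spread widely. The log2 rise with NaCl was 0.57 ± 0.15 (limma, adjusted p = 0.0213). It was not called without untreated replicate 1 (adjusted p = 0.0784) or 3 (0.0667), or without NaCl replicate 2 (0.0725) or 3 (0.063). The call was also lost with quantile normalization (0.174) and when only those groups were fitted (0.0985).

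The scarcer DELLA members moved in the opposite direction. A unigene described as gibberellin response modulator-like, with maize DWARF8 as its nearest Swissprot protein (Cluster-52034.66417), was at 12.9, 9.60 and 10.8 FPKM in untreated, 9.41, 9.34 and 7.55 in spermidine, 5.75, 4.86 and 5.22 in NaCl, and 9.11, 10.7 and 11.2 in spermidine+NaCl libraries. Every NaCl library was below every other library. Its mean was 2.1-fold lower with NaCl (log2 change -0.94 ± 0.13, limma adjusted p = 0.000659) and 1.96-fold higher with spermidine+NaCl than with NaCl (0.85 ± 0.13, adjusted p = 0.00197). The interaction was 1.16 ± 0.19 (adjusted p = 0.00392).

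The unigene described as SLN1 (Cluster-52034.106651), the name of the barley DELLA protein, had the largest change with NaCl in the class. It was at 11.9, 9.49 and 9.36 FPKM in untreated, 7.53, 8.5 and 8.82 in spermidine, 4.84, 4.08 and 5.11 in NaCl, and 9.26, 7.21 and 7.28 in spermidine+NaCl libraries. Here too the NaCl libraries were lowest, with spermidine+NaCl libraries above them. The log2 changes were -0.98 ± 0.14 with NaCl (limma, adjusted p = 0.000532) and 0.65 ± 0.14 for spermidine+NaCl against NaCl (adjusted p = 0.0096, and 0.0543 when only those groups were fitted), and the interaction was 0.92 ± 0.19 (adjusted p = 0.013).

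**Figure D3:**
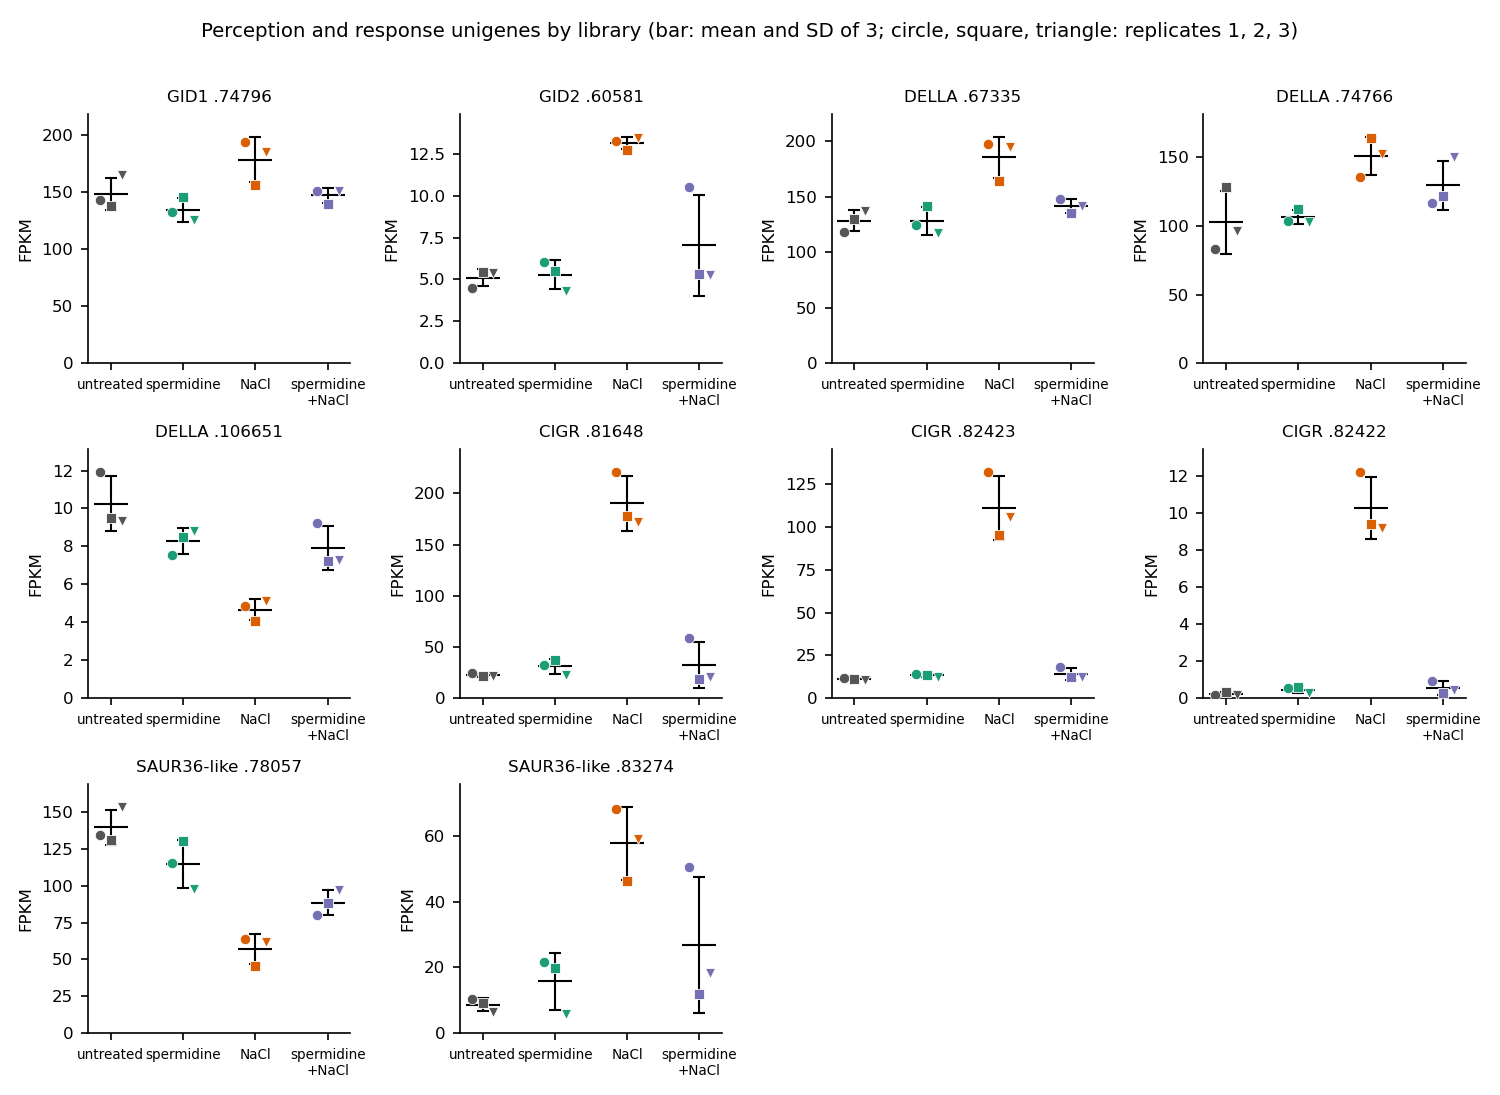
FPKM (vertical axis) of 10 perception and response members in each of the 12 libraries, by group; bars are the mean and SD of 3 libraries, and symbols mark the replicate number. The CIGR panels stand out with NaCl, SLR1 unigenes are high at 136 to 197 FPKM with NaCl, and DELLA Cluster-52034.106651 is lowest there at 4.08 to 5.11 FPKM.

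CIGR proteins, GRAS-family regulators first described in rice as induced by a chitin elicitor and by gibberellin, had the largest changes of all members. Of 6 tested, 4 rose with NaCl, while 10% of all tested unigenes rose. With spermidine+NaCl 4 of 6 were lower than with NaCl, while 7.18% of all tested unigenes were. The same 4 unigenes stand for only the CIGR1 and CIGR2 descriptions. Among them Cluster-52034.82422 and Cluster-52034.76810 had untreated means of 0.213 and 0.367 FPKM. They passed the limit through groups where they were high, which favours a rise with NaCl and a lower value without it. CIGR1 (Cluster-52034.82423) was at 12.1, 11.4 and 10.6 FPKM in untreated, 14.1, 13.6 and 12.5 in spermidine, 132, 95.6 and 106 in NaCl, and 18.5, 12.5 and 12.3 in spermidine+NaCl libraries. The NaCl libraries were far above the rest, and spermidine+NaCl replicate 1 was the highest of the remaining 9. Its mean was 9.8-fold higher with NaCl (log2 change 3.17 ± 0.16, limma adjusted p = 2.35e-06) and 7.7-fold lower with spermidine+NaCl than with NaCl (-2.87 ± 0.16, adjusted p = 5.83e-06). The interaction was -3.09 ± 0.23 (adjusted p = 7.65e-05).

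CIGR2 (Cluster-52034.81648), the most abundant of the class, was at 24.4, 21.4 and 21.7 FPKM in untreated, 32.9, 37.4 and 23.1 in spermidine, 221, 178 and 172 in NaCl, and 58.9, 18.8 and 20.9 in spermidine+NaCl libraries. Spermidine+NaCl replicate 1 was well above the other 2 of its group, and all 3 were far below the NaCl libraries. The mean rose from 22.5 ± 1.66 FPKM (SD, n = 3) untreated to 190 ± 26.6 with NaCl, which is 8.45-fold, and was 32.8 ± 22.5 with spermidine+NaCl. The log2 changes were 3.02 ± 0.36 with NaCl (limma, adjusted p = 0.000203) and -2.68 ± 0.36 for spermidine+NaCl against NaCl (adjusted p = 0.000703), with an interaction of -3.11 ± 0.50 (adjusted p = 0.00367).

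Minor unigenes with the same descriptions went the same way and may share reads with the main ones. The minor CIGR1 unigene (Cluster-52034.82422) was at 0.15, 0.34 and 0.15 FPKM in untreated, 0.53, 0.62 and 0.26 in spermidine, 12.2, 9.41 and 9.17 in NaCl, and 0.95, 0.28 and 0.43 in spermidine+NaCl libraries. Every library outside the NaCl group was under 1 FPKM, so the 48.1-fold ratio of the NaCl to the untreated mean stands on a very low base. Its log2 change with NaCl, 3.21 ± 0.22, was the largest of its class (limma, adjusted p = 9.07e-06), and it was 2.87 lower with spermidine+NaCl than with NaCl (log2 change -2.87 ± 0.22, adjusted p = 2.9e-05). The minor CIGR2 unigene (Cluster-52034.76810) rose by 2.59 ± 0.47 on the log2 scale with NaCl (adjusted p = 0.00282). In spermidine+NaCl replicates 1 to 3 it was at 3.72, 0.24 and 0.24 FPKM against 6.90 to 7.41 FPKM with NaCl, a log2 change of -2.08 ± 0.47 (adjusted p = 0.0138) that was -2.73 without replicate 1. That call was lost without spermidine+NaCl replicate 2 (limma, adjusted p = 0.0607) or 3 (0.0554), and when only those groups were fitted (0.0968). With a pseudocount of 0.1 the log2 changes with NaCl were 5.09 for the minor CIGR1 and 3.98 for the minor CIGR2 unigene. Its interaction of -2.98 was lost without spermidine replicate 1 (adjusted p = 0.0509).

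The remaining 2 CIGR members, described as scarecrow-like protein 21, had means of 21.7 and 10.2 FPKM and were not called. Their log2 differences with NaCl were 0.19 ± 0.09 and -0.26 ± 0.14 (limma, adjusted p = 0.203 and 0.225). The first was called with median-ratio scaling (0.32, adjusted p = 0.0276). Summed over the 6 members, FPKM was 64.1 ± 2.10 (SD, n = 3) untreated, 80.9 ± 5.22 with spermidine, 350 ± 45.8 with NaCl and 82.1 ± 26.2 with spermidine+NaCl.

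Among other response genes, the 3 unigenes nearest to Arabidopsis SAUR36, also named RESPONSE TO AUXINS AND GIBBERELLINS 1, split in direction. The most abundant (Cluster-52034.78057) was at 134, 131 and 153 FPKM in untreated, 115, 130 and 97.8 in spermidine, 63.9, 45.6 and 61.6 in NaCl, and 80.4, 88.0 and 97.3 in spermidine+NaCl libraries. NaCl libraries were lowest, spermidine+NaCl libraries were next, and neither group overlapped the untreated one. It fell with NaCl by 1.29 ± 0.15 on the log2 scale (limma, adjusted p = 0.000159) and was 0.64 ± 0.15 higher with spermidine+NaCl than with NaCl (adjusted p = 0.015). The latter call was lost without spermidine+NaCl replicate 2 (limma, adjusted p = 0.0501) or 3 (0.0601), and when only those groups were fitted (0.071). Median-ratio scaling ended that call (0.0946) and the interaction call of this unigene (0.93 ± 0.21, limma adjusted p = 0.0176 against 0.073).

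The other 2 SAUR36-like unigenes rose with NaCl. The more abundant (Cluster-52034.83274) was at 10.3, 9.33 and 6.40 FPKM in untreated, 21.6, 19.9 and 5.89 in spermidine, 68.1, 46.2 and 58.9 in NaCl, and 50.5, 11.9 and 18.2 in spermidine+NaCl libraries. Spermidine replicate 3 stood with the untreated libraries and spermidine+NaCl replicate 1 with the NaCl libraries. The log2 rise with NaCl was 2.61 ± 0.54 (limma, adjusted p = 0.00566). The difference of spermidine+NaCl from NaCl, -1.31, was not called (adjusted p = 0.13), and without spermidine+NaCl replicate 1 it was -1.89 (adjusted p = 0.0266). The scarcer unigene (Cluster-52034.92158) rose by 2.61 ± 0.58 with NaCl (adjusted p = 0.00828), and its difference of spermidine+NaCl from NaCl went from -1.85 (adjusted p = 0.055) to -2.49 (adjusted p = 0.00936) without the same library. With all libraries that difference was called under a limit of 5 FPKM (limma, adjusted p = 0.0404) and with only Oryza-hit unigenes fitted (0.0393). Median-ratio scaling (0.0483) and leaving out spermidine replicate 3 (0.0369) also gave the call.

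The 3 tested GASA peptides, small cysteine-rich proteins of the gibberellin-regulated family, were not called in any comparison. The most abundant (Cluster-52034.43190) was at 13.5, 14.5 and 14.0 FPKM in untreated, 10.4, 16.1 and 13.5 in spermidine, 11.3, 10.4 and 11.7 in NaCl, and 15.4, 12.8 and 14.4 in spermidine+NaCl libraries. The NaCl libraries were below all but spermidine replicate 1, with a log2 difference from untreated of -0.31 ± 0.14 (limma, adjusted p = 0.147). It was called without spermidine replicate 1 (adjusted p = 0.0492) and when only those groups were fitted (0.0288). KIN-4A, a kinesin that in rice has been linked to gibberellin synthesis, stayed between 27.3 and 38.3 FPKM, and neither it nor the 2 putative gibberellin oxidases was called.

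Spermidine alone and spermidine+NaCl were also set against untreated roots. With spermidine alone, log2 differences of the 43 members ran from -0.64 to 0.90 around a median of -0.08. The smallest adjusted p, 0.0886, belonged to GA2ox 6 (Cluster-52034.61547), at 3.59, 3.39 and 3.30 FPKM in untreated and 1.65, 2.05 and 2.0 FPKM in spermidine libraries. Those groups did not overlap, and the log2 difference of -0.61 was called with quantile normalization (-0.72, adjusted p = 0.0395) and without NaCl replicate 2 (adjusted p = 0.0368), which enters this comparison only through the shared estimate of spread.

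Between spermidine+NaCl and untreated roots 5.37% of all tested unigenes were called, and 4.54% of those with an Oryza hit. Of the 43 members 1 was called, 2.33%. It was the abundant SAUR36-like unigene Cluster-52034.78057, lower by a log2 change of -0.65 ± 0.15 (limma, adjusted p = 0.0309). The call ended without any single untreated library (adjusted p = 0.0873, 0.0675 and 0.0951 for replicates 1 to 3) and without spermidine+NaCl replicate 1 (0.0762) or 2 (0.0981). The other 42 members ran from -0.96 to 1.33 on the log2 scale without a call, which does not show that spermidine+NaCl and untreated roots were alike.

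The libraries of a group did not take the same place between untreated and NaCl roots. For each of the 21 members called with NaCl, each library was placed on a scale with the untreated mean at 0 and the NaCl mean at 1. The median place over the members was 0.37, 0.04 and 0.06 for spermidine+NaCl replicates 1 to 3, and 0.13, 0.24 and 0.02 for spermidine replicates 1 to 3. Among the 13 members that rose with NaCl, spermidine+NaCl replicate 1 was the nearest of its group to the NaCl mean in 11, and spermidine replicate 3 was the nearest of its group in 0. Among the 8 that fell, spermidine+NaCl replicate 1 was nearest in 5 and replicate 2 in 3. Replicate 1 of spermidine+NaCl also lay nearest to NaCl over all unigenes with an Oryza hit, and what sets it apart was not tested.

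**Figure D4:**
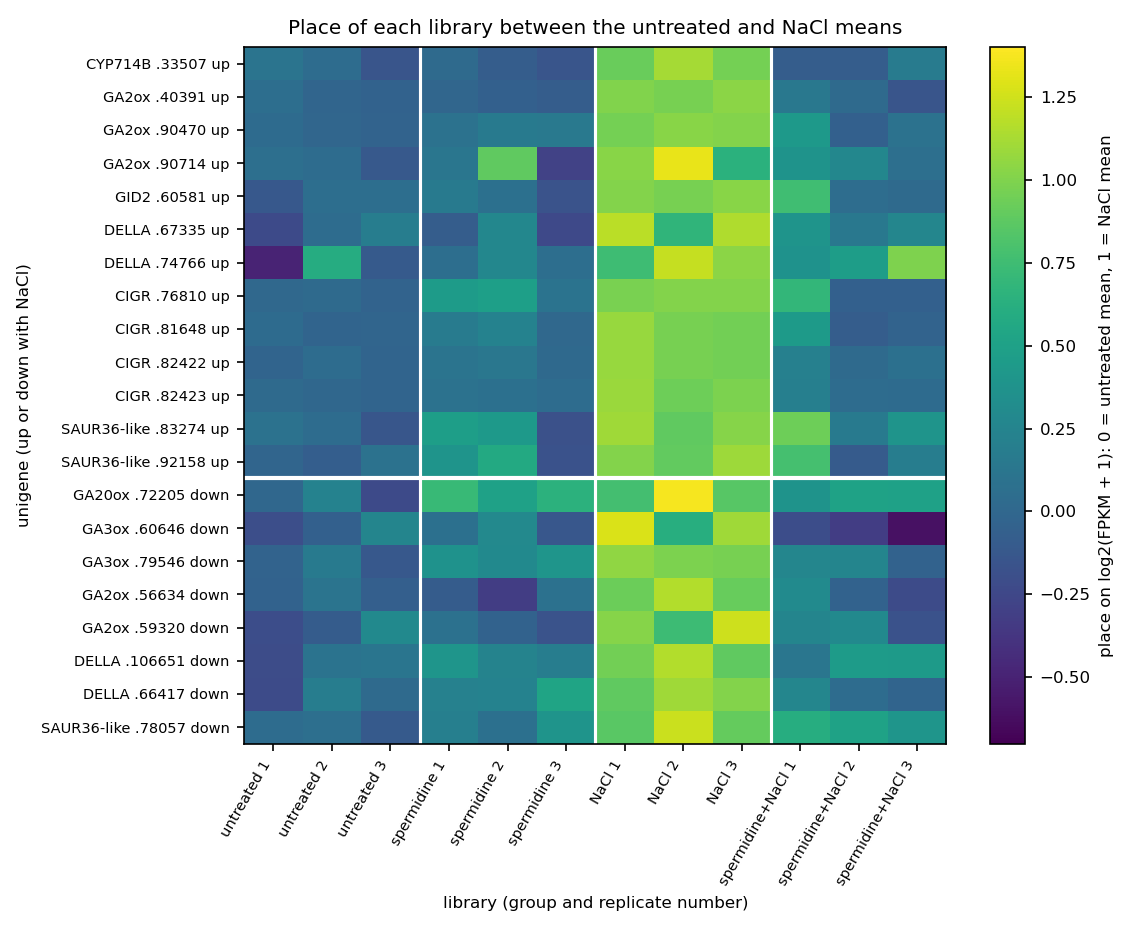
Place of each of the 12 libraries (horizontal axis) between the untreated mean (0) and the NaCl mean (1) for the 21 members called with NaCl, on log2(FPKM + 1), as colour. The colours of spermidine+NaCl replicate 1 lie nearer to NaCl (median 0.37) than those of replicates 2 and 3 (0.04 and 0.06), most of all in SAUR36-like, GID2 and minor CIGR2 rows.

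Genes of the pathway outside the membership rule were counted from a list of 71 unigenes by description. Of these, 29 were tested, and with NaCl 1 rose and 7 fell, 27.6% against 22.9% of all tested unigenes and 27.1% of those with an Oryza hit, with a median log2 change of -0.16 against -0.13 over all tested unigenes. With spermidine+NaCl against NaCl 2 were higher and 1 lower, 10.3% against 15.8% of all tested unigenes, with a median of 0.21 against 0.14. For early synthesis the counts were 1 higher and 5 lower of 9, while 10% of all tested unigenes were higher and 12.9% lower, and that list takes in relatives that make defence diterpenoids. Of the 5 lower calls, that of an ent-kaurene synthase-like 3 unigene (Cluster-52034.39470) was lost in 14 of 21 alternatives, with adjusted p up to 0.153. Ent-kaurene synthase (Cluster-52034.81144), which makes the gibberellin precursor kaurene, was at 2.52, 2.64 and 2.10 FPKM in untreated and 0.96, 0.46 and 0.61 FPKM in NaCl libraries. It fell by 1.04 ± 0.21 on the log2 scale (limma, adjusted p = 0.00465), and its difference of spermidine+NaCl from NaCl, 0.47 ± 0.21, was not called (adjusted p = 0.16). Ent-kaurenoic acid oxidase (Cluster-52034.81635) was at 5.06 ± 0.979 FPKM (SD, n = 3) untreated and 3.05 ± 0.351 with NaCl. Its log2 change of -0.57 ± 0.18 (limma, adjusted p = 0.0461) lost its call in 15 of 20 alternatives, with adjusted p up to 0.157.

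For signalling, 0 of 18 tested unigenes rose with NaCl by limma and 2 fell, 11.1% against 12.9% of all tested unigenes called lower. The PIF-like unigene among the 2 (Cluster-52034.25451) lost its call in 9 of 20 alternatives, with adjusted p up to 0.108. A unigene described as GAMYB (Cluster-52034.72820), a transcription factor that acts downstream of gibberellin in cereal grains, was at 12.1, 11.6 and 11.1 FPKM in untreated and 7.98, 9.13 and 8.58 FPKM in NaCl libraries. It fell by 0.40 ± 0.09 on the log2 scale (limma, adjusted p = 0.0109). The other 3 tested GAMYB unigenes were not called, with log2 differences of 0.61, 0.01 and -0.16. None of 3 SPINDLY unigenes and none of 2 CYP714D1 (EUI) unigenes was called with NaCl, with log2 differences between -0.21 and -0.16 and of 0.03 and 0.05.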

How the data were processed

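FPKM values of 12 root libraries were used as the authors deposited them, in a single table with the best protein hit of each unigene. The submitters' processing notes name CASAVA 1.8, RSEM and Bowtie2; the role of each, and how transcripts were assembled, is not given in the sources used here. Sums per library were 1312574 to 1371599 FPKM. Total depth is unknown, which leaves no counting intervals; relative depth read from low values was 0.883 to 1.04 times that of untreated replicate 1.

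The mean of each of the 4 groups was fitted to log2(FPKM + 1) in all 12 libraries with limma 3.58.1 (R 4.3.3), using trended empirical Bayes variances, wherever a unigene averaged at least 1 FPKM. The two-sided p-values were adjusted by Benjamini-Hochberg over all tested unigenes. The steps were tested on simulated data.

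Members and lists were chosen with earlier results of these data known. The naming rule gave over 30 members, so full values are given for the called member with the largest change and the most abundant member of each class; others are given in part, and GID2, the CYP714B1 and SAUR36-like unigenes, GA2ox 2, GA2ox 6 and the named pathway genes were picked after their values were seen. Gene identifiers in the best-hit descriptions of 4 members, none of them tested, matched a RefSeq gene (assembly ASM3414082v1). These were GA20OX3 for 3 GA20ox unigenes and LOC4344303, with the synonym CYP714B1, for 1 CYP714B unigene. Alternatives changed the pseudocount, filter, groups fitted, scaling, unigenes fitted, variance trend, replicate block and libraries.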

Additional observations from a re-analysis of the deposited data

Results flagged for a closer look

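For 13 members, the change with spermidine differed between roots with and without NaCl by the interaction test (limma, adjusted p below 0.05 over all tested unigenes), in log2 units. These were 30.2% of the 43 tested members, while 10.9% of all tested unigenes were called and 12.1% of those with an Oryza hit. The difference was above 0 for both abundant GA3ox unigenes (1.62 for Cluster-52034.60646 and 1.47 for Cluster-52034.79546), for GA20ox 1 (0.63), for the scarcer DELLA unigenes (1.16 for Cluster-52034.66417 and 0.92 for Cluster-52034.106651) and for the SAUR36-like Cluster-52034.78057 (0.93). It was below 0 for 4 CIGR unigenes (-3.14 for Cluster-52034.82422, -3.11 for Cluster-52034.81648, -3.09 for Cluster-52034.82423 and -2.98 for Cluster-52034.76810), for both OsI_03793 GA2ox unigenes (-2.50 for Cluster-52034.40391 and -2.37 for Cluster-52034.90470) and for the unigene nearest to CYP714B1 (-2.29). Among those below 0, Cluster-52034.82422, Cluster-52034.76810, Cluster-52034.90470 and the unigene nearest to CYP714B1 passed the limit through groups where they were high. That favours a value below 0. Groups had 3 libraries each, so single libraries were not tested as outliers.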

How the results depend on the processing

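Of the calls, 19 of 21 for NaCl against untreated roots, 9 of 16 for spermidine+NaCl against NaCl, 9 of 13 for the interaction and 0 of 1 for spermidine+NaCl against untreated roots held under every alternative that tested the member, and 0 values reversed. Leaving out single libraries gave 19 to 22, 12 to 19, 12 to 19 and 0 to 1 called members in these comparisons, and 0 to 1 for spermidine against untreated roots. Other alternatives gave 17 to 26 for NaCl and 11 to 15 for the interaction. With only the compared groups fitted, spermidine+NaCl against NaCl gave 10 calls in place of 16. Spermidine against untreated roots gave 1 in place of 0 with quantile normalization, and spermidine+NaCl against untreated roots gave 0 in place of 1 with only those groups fitted, without a variance trend and with the replicate block.

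The replicate numbers gave no clear pairing of the libraries. Deviations of same-numbered libraries correlated at -0.109 to 0.147, with 2 of 18 pairs over 0.1, and those of other pairs at -0.1 to 0.098. Both pairs over 0.1 held spermidine+NaCl replicate 1, with untreated replicate 1 (0.147) and with spermidine replicate 1 (0.104). What these libraries share was not tested. As a block the replicate number gave 21, 0, 17, 0 and 13 calls for NaCl, spermidine, spermidine+NaCl against NaCl, spermidine+NaCl against untreated roots and the interaction. The added call was that of the GID1C-like unigene (0.72, limma adjusted p = 0.0429).

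FPKM without counts leaves depth unknown, so how far low members are limited by depth could not be given.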

Other observations

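Members under the limit of 1 FPKM, described here after their values were seen, held further GA2ox unigenes that were highest with NaCl. In 5 of the 22 such members, all GA2ox, every NaCl library was above every other library. How many of all unigenes under the limit have this pattern was not computed, and the values lie near 0. A unigene described as GA2ox 1 (Cluster-52034.122431) was at 0.15, 0 and 0 FPKM in untreated, 0.46, 0.31 and 0 in spermidine, 1.58, 2.59 and 2.22 in NaCl, and 0, 0 and 0 in spermidine+NaCl libraries. Another, nearest to Arabidopsis GA2ox 1 (Cluster-36294.0), was listed at 0 in the 9 libraries without NaCl alone and at 1.09, 0.69 and 1.02 FPKM in NaCl libraries. With no limit on low values, limma called 6 of the 22 higher with NaCl than untreated and 0 lower, while 4.4% of all unigenes were called higher and 4.88% lower in that fit. With spermidine+NaCl against NaCl it called 0 higher and 5 lower, while 2.17% and 3.18% of all unigenes were. The 6 were 5 GA2ox members and 1 GA20ox member (Cluster-52034.98624, log2 change 1.28, adjusted p = 0.0314). Other low GA2ox members had differences in the opposite direction that were not called, among them -0.99 for Cluster-52034.100063 and -0.72 for Cluster-52034.90712. The limit in the report therefore keeps these members out of its counts.

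Among pathway genes outside the members, a unigene whose best hit was ent-kaurene oxidase 2 but whose Swissprot hit was a B3 domain protein (Cluster-52034.55143) was at 7.82, 10.1 and 9.59 FPKM in untreated, 6.35, 6.5 and 5.38 in spermidine, 4.17, 5.25 and 5.78 in NaCl, and 8.46, 7.92 and 8.12 in spermidine+NaCl libraries. The spermidine+NaCl libraries were above every NaCl library. Its interaction was 1.13 ± 0.19 (limma, adjusted p = 0.00439). Which gene it stands for is uncertain because the descriptions differ. The more abundant unigene with both descriptions naming ent-kaurene oxidase 2 (Cluster-52034.71024) was not called, with a log2 difference of 0.16 with NaCl (limma, adjusted p = 0.426) and an interaction of 0.41 (adjusted p = 0.181).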
